A study of Homo sapiens with 15 samples.

Results

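The transcripts of 10 amino acid transporter genes were followed in A2058 cells, an established human melanoma line, after 8 hours with NP, metformin or phenformin. The genes were chosen by name (SLC7A11, SLC3A2, SLC7A5, SLC7A1, SLC38A2, SLC38A1, SLC1A5, SLC1A4, SLC6A9 and SLC43A1) and found through the RefSeq accession that the array gives for each probe. All 10 were measured, by 13 probes, among 26777 genes or transcripts tested. The probe used for each gene was well above background on all 15 arrays, so that none of the 10 depended on the filter on dim probes.

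The series compared 5 groups of 3 single-dye arrays. Cells received NP at 3 μM with DMSO as the vehicle control, or metformin (MET) at 5 mM or phenformin (PHEN) at 50 μM with water (W) as the control, and no other treatment. The first compound is NP in the sample labels and neopetasin in the series title, whereas the study's methods give petasin at this dose and time in this line. The arrays do not show which it was, and it is called NP here. Replicates 1 and 2 of DMSO and NP shared a slide, as did replicates 1 and 2 of W, MET and PHEN, and each set's replicate 3 arrays were on a further slide, which made 4 slides. Slide and vehicle therefore cannot be told apart between DMSO and W. The study's methods call the replicates biological, and the labels do not say more about how the cultures were set up.

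Levels are log2 intensities with the array's own 75th percentile set to 0. A gene was called changed where limma gave a Benjamini-Hochberg adjusted p of at most 0.05 over all 26777 features together with a change of at least 1.5-fold. Probes well above background numbered 25804 to 32056 on the DMSO and NP arrays and 31408 to 45044 on the others, with the most on replicate 1 of W and of MET. No spot was saturated. Of 9 melanocyte markers 8 were well above background on all arrays, the exception being TYR, on 13. MLANA lay between −2.60 and −2.15 on the replicate 3 arrays of DMSO and NP and between −0.69 and 0.42 on their other arrays. TYR was also lowest on these replicate 3 arrays, whereas MITF, SOX10, DCT and S100A1 were highest there in both groups. PMEL and S100B lay between replicates 1 and 2 there, and TYRP1 was lowest there with DMSO only. Markers of other cell types were not all absent. Of 5 keratinocyte markers KRT10 and KRT14 were well above background on all arrays, TP63 on 7, and KRT5 and KRT1 on none, and 2 of 5 fibroblast markers (COL1A1 and LUM) and 2 of 4 leukocyte markers with a probe (PTPRC and CD14) were so on all arrays.

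Amino acid transporters set which nutrients a cell can take up and exchange. SLC7A11 forms, with the heavy chain SLC3A2, the antiporter that imports cystine for glutathione and exports glutamate. SLC3A2 also carries SLC7A5, which exchanges large neutral amino acids such as leucine for glutamine brought in by carriers such as SLC1A5, SLC38A1 and SLC38A2. Many of these genes are known targets of ATF4, the transcription factor of the amino acid response, which is translated when eIF2α is phosphorylated, and SLC7A11 is also a known target of NRF2. Metformin and phenformin are biguanides that inhibit complex I of the respiratory chain.

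Promoter sequences are shown for the genes that carried a match to the C/EBP-ATF composite core TGATGNAA, the kind of element that ATF4 binds with C/EBP partners, and for SLC6A9, which had the largest differences. RefSeq windows from 250 bases before to 50 after each annotated start (GRCh38.p14) were found for 9 of the 10 genes in 16 windows, SLC7A11 being the exception. On either strand the core matched 5 of the 16 windows and 5 of the 9 genes, against 3.62% of all 35116 windows and 4.46% of all 27305 genes. The 30 bases around each match follow, 5′ to 3′ on the strand of the gene, with the matched letters in capitals.
SLC1A4, chr2:64989381-64989410, plus strand: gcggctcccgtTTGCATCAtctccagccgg
SLC3A2, chr11:62881719-62881748, plus strand: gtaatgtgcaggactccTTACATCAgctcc
SLC38A1, chr12:46266502-46266531, minus strand: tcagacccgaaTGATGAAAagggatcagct
SLC7A1, chr13:29595663-29595692, minus strand: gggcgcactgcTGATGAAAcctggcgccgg
SLC1A5, chr19:46784893-46784922, minus strand: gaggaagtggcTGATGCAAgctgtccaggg
The matches in SLC38A1 and SLC7A1 held the same 8 letters, and those of SLC1A4 and SLC3A2 were read on the opposite strand. Positions are counted from the annotated start of the window that held the match. The first matched base lay at −7 in SLC1A4, at 38 in SLC3A2, at −4 in SLC38A1, at 8 in SLC7A1 and at −97 in SLC1A5. SLC3A2 and SLC1A5 each had more than 1 annotated start, and the match was near 1 of them. The 100 bases before the start of SLC6A9 (chr1:44031463-44031562, minus strand) held no such match.
SLC6A9: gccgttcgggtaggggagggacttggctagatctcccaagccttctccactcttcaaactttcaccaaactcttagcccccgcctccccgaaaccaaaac
The core of the antioxidant response element, TGANNNNGC, was in 8 of the 16 windows and in 5 of the 9 genes, near its share of 41.8% of all windows and 47.1% of all genes. A match describes letters in a window and is no evidence of binding.

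Under NP all 10 transporters were higher than under DMSO, by 0.28 to 1.18 on the log2 scale, with a median of 0.44 beside −0.01 over all features. With the replicate number as a block over all 15 arrays, none passed the adjusted threshold in limma, which called 0.0373% of all features higher under NP. The numbers paired arrays within each set of slides only. With the block within each set limma called SLC7A11, among 52 features called in either direction. With slide as a term it called SLC7A11 and SLC6A9, among 63 features. With slide as a random block it called the same 2, among 70 features. At an unadjusted p of at most 0.05, 8 of the 10 were higher, against 2.80% of all features, and none was lower, against 1.89%. Of the 9 transporters measured on all arrays, 7 had all NP arrays above all DMSO arrays, against 3.02% of features, and all 9 were higher under NP in each of the 3 same-number pairs, against 14.3%. The unadjusted share and the median are descriptions of a list chosen with results of these arrays known. The arrays measured the RNA of whole cultures, in which more cells with a transcript and more of it per cell cannot be told apart.

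SLC6A9 encodes the glycine transporter GLYT1. Its level on replicates 1, 2 and 3 was 1.58, 1.17 and 2.50 with DMSO and 2.57, 2.90 and 3.32 with NP. In the other set it was 0.42, 0.47 and 0.37 with W, 1.57, 1.80 and 1.94 with MET and 1.71, 1.86 and 2.09 with PHEN. Every treated array lay above every array of its own vehicle, and DMSO replicate 3 stood well above the other DMSO arrays. The difference was 2.26-fold for NP (log2 1.18, SE 0.23, unadjusted p = 0.000414, limma adjusted p = 0.185). It was 2.54-fold for MET (log2 1.35, SE 0.23, limma adjusted p = 0.494) and 2.76-fold for PHEN (log2 1.46, SE 0.23, limma adjusted p = 0.146). With slide as a further term the adjusted p was 0.0341 for NP, 0.0670 for MET and 0.0230 for PHEN, so that the NP and PHEN differences passed the threshold in that fit. They did so also with slide as a random block (adjusted p = 0.0228 and 0.0146). With the replicate block within each set of slides the adjusted p was 0.0558 for NP and 0.0668 for PHEN, which did not pass. A second, dimmer probe for SLC6A9 was not well above background on any DMSO array and was so on the other 12. It was at least 1.43-fold higher with NP, against the lowest detected signal of each DMSO array. On the log2 scale this probe differed by 0.89 for MET and by 0.56 for PHEN, and its PHEN arrays overlapped W. With the mean of the gene's probes the differences were 1.12 for MET and 1.01 for PHEN (limma adjusted p = 0.778 and 0.593).

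SLC7A11, the cystine-glutamate antiporter, was at 4.20, 4.15 and 4.22 with DMSO and at 4.85, 5.16 and 4.96 with NP. The DMSO arrays lay close together and all NP arrays were above them, a 1.73-fold difference (log2 0.79, SE 0.16, unadjusted p = 0.000632, limma adjusted p = 0.234). With slide as a further term the adjusted p was 0.0222, and with the replicate block within each set of slides 0.0316, which passed the threshold. The levels were 2.54, 2.64 and 3.15 with W, 2.77, 3.04 and 3.60 with MET and 3.13, 3.21 and 3.54 with PHEN. Replicate 3 was the highest of each of these groups, so that groups overlapped while every same-number pair was higher with the compound, by 0.23 to 0.45 for MET and by 0.39 to 0.59 for PHEN. The fitted differences were 0.36 for MET (limma adjusted p = 1, unadjusted p = 0.0512) and 0.52 for PHEN (limma adjusted p = 1, unadjusted p = 0.00988).

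SLC3A2, the heavy chain shared by both heteromeric carriers, was at 3.88, 4.01 and 4.05 with DMSO and at 4.18, 4.42 and 4.29 with NP. It was at 4.49, 4.43 and 4.11 with W, 4.69, 4.80 and 4.53 with MET and 4.80, 4.75 and 4.51 with PHEN. No treated group overlapped its vehicle. The differences were nearly equal for the 3 compounds, 0.32 for NP, 0.33 for MET and 0.34 for PHEN on the log2 scale (SE 0.12 each, unadjusted p = 0.0224, 0.0191 and 0.0159 in limma, adjusted p = 0.971, 1 and 1). SLC7A5, the light chain LAT1, ran from 5.71 to 6.60 with DMSO and from 5.98 to 6.85 with NP, replicate 3 being the highest in both, from 5.60 to 5.74 with W, from 5.68 to 5.91 with MET and from 5.84 to 5.87 with PHEN. The NP and MET arrays overlapped their vehicles and the PHEN arrays did not. The differences were 0.28 for NP, 0.14 for MET and 0.17 for PHEN (SE 0.20 each). Its DMSO-NP pairs were nonetheless alike, at 0.27, 0.30 and 0.25.

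Among the carriers of neutral amino acids, the sodium-coupled SLC38A1 (SNAT1) was at 5.01, 4.85 and 4.80 with DMSO and 5.30, 5.42 and 5.19 with NP, with no overlap (log2 0.42, SE 0.13, unadjusted p = 0.0111, limma adjusted p = 0.859). SLC38A2 (SNAT2), which is known to be induced when amino acids are scarce, was at 4.06, 4.07 and 3.99 with DMSO and 4.71, 4.56 and 4.23 with NP, also without overlap (log2 0.46, SE 0.19, limma adjusted p = 1). Under the biguanides they differed by 0.15 and 0.14 for MET and by 0.30 and 0.25 for PHEN, and those groups overlapped W. Second probes for these genes gave 0.48 (SLC38A1) and 0.41 (SLC38A2) for NP, 0.11 and 0.21 for MET, and 0.27 and 0.41 for PHEN.

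SLC1A5 (ASCT2), an exchanger of glutamine and other neutral amino acids, was at 2.24, 2.28 and 2.84 with DMSO and 2.80, 2.97 and 2.98 with NP, and DMSO replicate 3 overlapped the NP arrays. It was at 2.70, 2.53 and 2.23 with W, 2.72, 2.99 and 2.91 with MET and 2.84, 2.91 and 2.98 with PHEN, where no array of either biguanide lay below the highest W array. The fitted differences were 0.46 for NP, 0.39 for MET and 0.42 for PHEN (SE 0.17 each, unadjusted p = 0.0217, 0.0476 and 0.0339 in limma). Without replicate 3 they were 0.24 for MET and 0.26 for PHEN. SLC1A4 (ASCT1), its relative for alanine, serine and cysteine, was at 0.05, −0.20 and 0.32 with DMSO and 0.38, 0.52 and 0.82 with NP, which did not overlap (log2 0.51, SE 0.15, limma adjusted p = 0.718). It differed by 0.23 for MET and 0.34 for PHEN.

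SLC7A1 (CAT1) imports arginine and lysine. It was at 4.53, 4.51 and 4.25 with DMSO and 4.76, 4.99 and 4.57 with NP (log2 0.34, SE 0.22, limma adjusted p = 1), and the lowest NP array was just above the highest DMSO array. In the other set W replicate 1, at 3.15, lay far below W replicates 2 and 3, at 3.94 and 4.08. The pair differences against that array were 0.49 for MET and 0.72 for PHEN, against 0.04 to 0.25 in the other pairs, and the fitted differences were 0.13 and 0.16 without replicate 1. W replicate 1 was also the array with the most probes above background, and the part of this in the value was not tested.

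SLC43A1 (LAT3), a facilitative carrier of large neutral amino acids, was the member nearest to its vehicle under the biguanides. It was at 0.73, 0.75 and 0.69 with W, 0.61, 0.67 and 0.66 with MET and 0.72, 0.70 and 0.79 with PHEN, so that MET lay just below W (log2 −0.08, SE 0.11) and PHEN on it (0.01, SE 0.11). With DMSO it was at 0.04, 0.20 and 0.33 and with NP at 0.28 and 0.69, the spot of NP replicate 2 having been dropped from the fit as an outlier. The NP difference of 0.30 (SE 0.11, unadjusted p = 0.0275, limma adjusted p = 0.982) rests on the other pairs, at 0.24 and 0.36. With the authors' normalized table, from which outlier spots were not removed here, the NP difference was 0.85 and was not called.

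**Figure D1:**
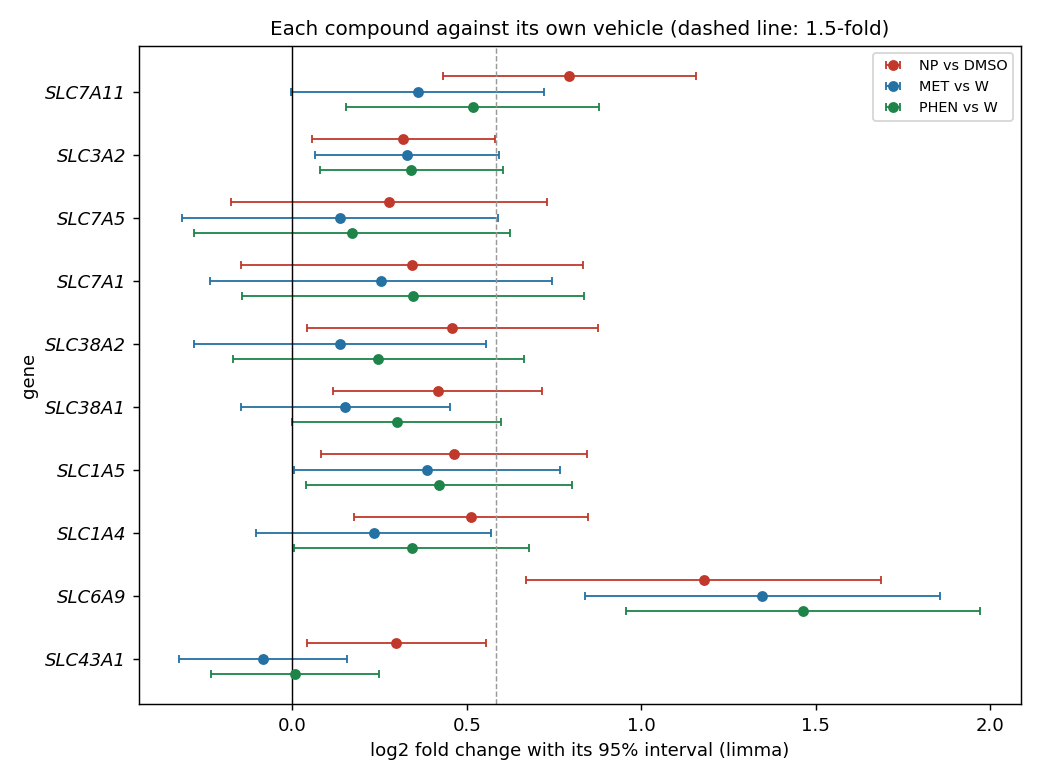
Log2 fold change of each transporter (x axis) for NP against DMSO, MET against W and PHEN against W, as points with the 95% interval of the limma fit over 15 arrays. Intervals for SLC6A9 lay above the dashed line at 1.5-fold for all 3 compounds, from 0.67 at the lowest, and those for SLC7A5 and SLC7A1 included 0 throughout.

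For MET, 9 of the 10 transporters were above 0, with a median of 0.24 beside 0.00 over all features. limma called none of them and 0.0% of all features, where 658 features had an unadjusted p of at most 0.05. At that unadjusted p 3 transporters were higher (SLC6A9, SLC3A2 and SLC1A5), against 1.38% of features, and none was lower, against 1.08%. The same 3 had all MET arrays above all W arrays, against 3.48% of features, and 7 were higher in all 3 pairs, against 22.2%. For PHEN all 10 were above 0, with a median of 0.34 beside −0.03 over all features, and limma called none of them and 0.0261% of all features. At an unadjusted p of at most 0.05, 6 were higher, against 0.822% of features, and none was lower, against 1.54%. Groups did not overlap for 5 (SLC3A2, SLC7A5, SLC1A5, SLC1A4 and SLC6A9), against 3.82%, and 9 were higher in all 3 pairs, against 12.2%.

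Differences between the compounds' effects were fitted directly. Over the 10 transporters the NP effect minus the MET effect ran from −0.17 to 0.43, the NP effect minus the PHEN effect from −0.28 to 0.29 and PHEN minus MET from 0.01 to 0.16, and limma's adjusted p was 1 for each of these 30 differences. The NP effect on SLC7A11 exceeded that of MET by 0.43 with an interval of −0.08 to 0.95, which includes 0 and a nearly 2-fold difference. With slide as a further term its SE was 0.14 in place of 0.23, with an unadjusted p of 0.0113 in limma (adjusted p = 0.655). For SLC6A9 the interval was −0.89 to 0.55 against MET and −1.003 to 0.43 against PHEN. SLC43A1 had the smallest unadjusted p of the fit without a slide term, 0.0367 for NP against MET (0.38, interval 0.03 to 0.73). With the slide term that difference was 0.35 (unadjusted p = 0.0122, limma adjusted p = 0.655), and the p of SLC7A11 was smaller. Phenformin and metformin, biguanides that differ in a phenethyl against 2 methyl groups, were used at 50 μM and 5 mM, and their values stand side by side here without a comparison at a common dose.

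**Figure D2:**
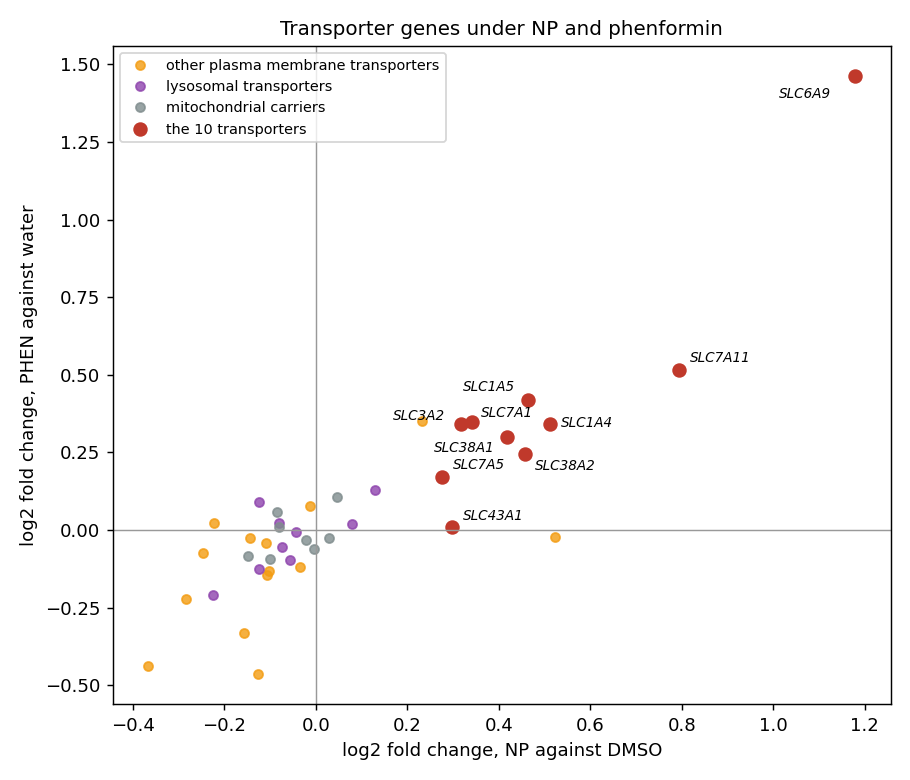
Log2 fold change for NP against DMSO (x axis) and for PHEN against water (y axis), comparisons with no array in common, for the 10 transporters (red) and for the tested genes of 3 other lists of amino acid carriers. The 10 lie at or above 0 on both axes, SLC6A9 farthest at 1.18 and 1.46, while the lysosomal and mitochondrial carriers lie near 0 and SLC7A7 lies at 0.52 for NP.

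The medians of 3 other lists of amino acid carriers lay from −0.12 to 0.02, and the difference between lists was not tested. Of 27 other carriers of the plasma membrane 14 passed the filter on dim probes, with a median of −0.12 for NP, 0.02 for MET and −0.10 for PHEN. limma called none of them. Above 0 were 2 of the 14 for NP, 8 for MET and 3 for PHEN. SLC1A7 and SLC6A6 had all NP arrays below all DMSO arrays (unadjusted p = 0.0527 and 0.0832 in limma). Of the 14 genes only SLC7A7, a light chain that exports cationic amino acids, had an unadjusted p of at most 0.05 for NP (log2 0.52, limma adjusted p = 1). Its DMSO arrays (−2.70 to −2.26) overlapped the NP arrays (−2.30 to −1.65). Otherwise the widest differences in that list were −0.37 for NP and −0.44 for PHEN in SLC6A18, 0.48 for MET and −0.47 for PHEN in SLC38A5 and 0.38 for MET in SLC38A3, the glutamine carrier SNAT3. SLC38A3 was at 3.57, 2.31 and 1.43 with W, a wider spread than any of these differences.

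All 9 lysosomal carriers were tested, with a median of −0.07 for NP, −0.02 for MET and −0.01 for PHEN. The NP median was the value of SLC7A14, which was well above background on only 7 of the 15 arrays. Its DMSO and NP levels lay below the lowest detected signal of those arrays. None of the 9 had an unadjusted p of at most 0.05 for any compound. The widest differences of these carriers were those of SLC36A1, a proton-coupled carrier of small amino acids, at −0.22 for NP, −0.24 for MET and −0.21 for PHEN. SLC38A9 was at 0.13 for NP and PHEN and MFSD12 at 0.15 for MET. Of 9 mitochondrial carriers 8 were tested, with medians of −0.05, −0.07 and −0.03, and none reached that p. The widest differences were −0.15 for SLC25A44 under NP, −0.26 for the serine carrier SFXN1 and −0.13 for SLC25A13 under MET, and 0.11 for SLC25A38 under PHEN, with SFXN1 at −0.10 under NP and −0.09 under PHEN.

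Of the transcription factors and regulators of amino acid and oxidative stress, TRIB3, a pseudokinase induced by ATF4, rose under NP (log2 1.01, SE 0.13, limma adjusted p = 0.0457), and it was not called with any replicate number left out. It was the only gene of this list called for a compound. Of 10 in the list 9 were tested, all but NFE2L2, with 8 above 0 for NP, 6 for MET and 7 for PHEN and medians of 0.60 for NP, 0.34 for MET and 0.53 for PHEN. At an unadjusted p of at most 0.05, 6 were higher for NP, 5 for MET and 6 for PHEN, against 2.80%, 1.38% and 0.822% of all features, and none was lower. ATF4 was at 8.40, 7.80 and 8.77 with DMSO and 8.77, 8.75 and 9.25 with NP, and it differed by 0.60 for NP, 0.52 for MET and 0.57 for PHEN. ATF3 differed by 1.17, 0.84 and 0.99 and DDIT3, which encodes CHOP, by 1.04, 0.69 and 0.63. ATF5 was lower on all treated arrays than on all vehicle arrays for NP (−0.25) and PHEN (−0.23), with limma adjusted p = 1 for both.

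Between the vehicles, SLC7A11, SLC38A1, SLC6A9 and SLC38A2 were higher with DMSO and passed the test. Of the 10, these 4 were called higher with DMSO than with W in limma, against 2.82% of all features. None of the 10 was called lower, while of the 2833 features called 754 were higher and the rest lower. SLC7A11 was higher by 1.42 (adjusted p = 0.00337), SLC38A1 by 1.18 (adjusted p = 0.00337), SLC6A9 by 1.33 (adjusted p = 0.00708) and SLC38A2 by 0.86 (adjusted p = 0.0157) on the log2 scale. At an unadjusted p of at most 0.05, 5 were higher, against 10.7% of features, and SLC3A2 and SLC43A1 were lower, against 23.0%. Those 5 (the 4 called and SLC7A1) had all DMSO arrays above all W arrays, against 9.20% of features. SLC3A2 and SLC43A1 had all DMSO arrays below all W arrays. None of the 10, and 0 features, were called with replicate 1 or with replicate 2 left out. Without replicate 3, 6 transporters were called, while calls over all features numbered 5042, 1632 of them higher with DMSO. SLC43A1 was among those 6 and was lower with DMSO (−0.62). With slide as a random block SLC7A11 and SLC38A1 were called, SLC6A9 (adjusted p = 0.0575 in limma) and SLC38A2 (adjusted p = 0.162) were not, and calls over all features numbered 201 in place of 2833.

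SLC43A1 was lower with DMSO by 0.54 (limma adjusted p = 0.0133), short of 1.5-fold, and SLC3A2 by 0.37 (limma adjusted p = 0.0576). The median over all features was −0.12 in this comparison and 0.01 after quantile normalization, and the transporters' median was 0.55. The other SLC38A1 probe differed by 0.78 and that of SLC38A2 by −0.26, opposite to the call. The second SLC6A9 probe was not well above background on any DMSO array and gives no value here. With the mean of a gene's probes SLC38A2 was not called (0.30, limma adjusted p = 0.133), nor was SLC6A9, whose mean includes that dim probe. As slide and vehicle cannot be told apart, these values are not attributed to DMSO.

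The order of the 5 groups separated the genes into patterns. This order spans both vehicles and so both sets of slides, which cannot be told apart. By the probe used for each gene, SLC7A11, SLC38A1 and SLC38A2 ran NP, DMSO, PHEN, MET, W from highest to lowest, with NP clear of DMSO and DMSO clear of PHEN, whereas PHEN, MET and W overlapped their neighbours. The second SLC38A2 probe had another order, with group means of 3.45 for PHEN, 3.26 for MET, 3.19 for NP, 3.05 for W and 2.78 for DMSO. SLC7A1 had the order of SLC7A11 with a gap only between NP and DMSO. SLC6A9 was highest with NP, PHEN, MET and DMSO overlapped, and W was lowest and apart. SLC3A2 ran PHEN, MET, W, NP, DMSO, with gaps between MET and W and between NP and DMSO. SLC1A5 ran NP, PHEN, MET, W, DMSO with a gap only between MET and W, and SLC43A1 ran PHEN, W, MET, NP, DMSO with a gap only between W and MET. SLC1A4 and SLC7A5 had no gap between neighbouring groups.

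The 9 differences between treated and vehicle arrays of the same number, of which 6 share W arrays and which span 3 compounds, are described by Pearson's r. Shared arrays and the compounds' different means enter these r values, and no value of r without co-variation was set beside them. Between pairs of members r ranged from −0.56 (SLC6A9 and SLC43A1) to 0.93 (SLC7A11 and SLC38A1). The r values of SLC43A1 leave out its missing NP pair. SLC3A2 was closest to SLC1A5 (r = 0.89) and to SLC6A9 (r = 0.82), and not to SLC7A11 (r = 0.25). Outside the list, the named genes most like SLC7A11 by this measure were TAF1 (r = 0.96), BLTP3A (r = 0.96) and CTH (r = 0.95). CTH, the enzyme that makes cysteine from cystathionine, differed by 1.30 to 2.16 for NP, 0.84 to 0.95 for MET and 1.09 to 1.31 for PHEN. TAF1 had the same shape with differences of −0.38 to 0.20, so likeness of shape did not require a positive difference. The genes most like the mean of the 9 fully measured members were TIMP3 (r = 0.96), STK4-DT (r = 0.95) and ANKFN1 (r = 0.94). These were the highest of all tested genes with a symbol over 9 values and are given as a description.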

How the data were processed

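RNA of A2058 cells was measured on 15 single-dye Agilent arrays. The deposited intensities are processed spot signals, which the authors extracted with Agilent Feature Extraction (version 10.7.3.1 in the file headers, 9.1 in the submitters' processing notes) with background subtracted and no normalization between arrays. The authors' own table of deposited log2 values, with a floor of 4, served as an alternative. Here outlier spots became missing (225 of 401655 values), replicate spots were averaged by probe, and values were taken as log2 minus the 75th percentile of their array. The filter kept 32914 of 58201 probes, those well above background in every array of 1 group or more. Each gene took its probe with the highest mean and needed at least 8 values. RefSeq accessions gave symbols for 31104 of 33080 probes that carried one. The RefSeq tables are of GRCh38.p14 and served for names and promoter windows.

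limma 3.58.1 (R 4.3.3, statmod 1.5.0) fitted the 5 groups with the replicate number as a block over 15 arrays in two-sided tests. P-values were adjusted by Benjamini-Hochberg over the 26777 features. The fit was also run on simulated data with independent noise on each array. These data held no slide, replicate or vehicle effect, so that run does not show how the fit deals with such effects. Same-numbered arrays deviated together within each set of slides (r = 0.31, 0.33 and 0.65 for NP and DMSO, 0.86, 0.44 and 0.80 for MET and W, 0.30, 0.24 and 0.40 for PHEN and W) and not between DMSO and W (−0.10, −0.19 and −0.02). The members and lists were chosen with earlier results of these data known. Named besides the members were, in each other list of transporters or factors, genes called and the 2 with the widest difference per comparison with a vehicle, ATF4, TRIB3 and DDIT3, and the 3 genes most like SLC7A11 and the 3 most like the members' mean. Other steps used pandas 2.3.3, numpy 2.4.6 and matplotlib 3.10.9 under Python 3.11.15. Alternatives were no replicate block, slide as a term or a random block, the replicate block within each set of slides, no filter, a filter requiring all 15 arrays, averaging the probes of a gene, the authors' table, quantile normalization, normexp with an offset of 50 on the median spot signal, only the groups compared, the methods' paired t-test with and without adjustment, and each replicate number left out.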

Additional observations from a re-analysis of the deposited data

How the results depend on the processing

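The number of arrays, 3 per group, and the brightness of each probe over background limit the precision. For NP, 2 transporters (SLC7A11 and SLC6A9) were called with slide as a term beside the replicate block, 2 with slide as a random block, 1 (SLC7A11) with the replicate block within each set of slides and 1 (SLC7A11) by the methods' t-test without adjustment, where the main analysis called 0. For MET that t-test called 1 (SLC6A9). For PHEN the slide term, the random block, normexp and that t-test each called 1 (SLC6A9), and the median was 0.30 with normexp against 0.34. Between DMSO and W, where numbers did not pair, the fit without the replicate block called the same number, 4, with slide as a random block 2 (SLC7A11 and SLC38A1), with the mean of a gene's probes 2, and with only the 2 groups or after adjustment of the t-test 0. The median of 0.55 there was 0.35 with the mean of probes and 0.36 with normexp. Without the replicate block, 0 transporters were called for NP, MET and PHEN. With 1 replicate number left out the calls ranged from 0 to 0 for NP, MET and PHEN and from 0 (without replicate 1 or 2) to 6 (without replicate 3) for DMSO and W, and the PHEN median from 0.29 to 0.36. The direction turned for SLC43A1 under PHEN with quantile normalization (−0.0033) and normexp (−0.0104), and ranged from −0.0341 to 0.0377 with a replicate number left out. It turned between DMSO and W for SLC1A5 with slide as a random block (0.0164), ranging from −0.36 to 0.17 with a replicate left out, and for SLC1A4, ranging from −0.13 to 0.21. The other values kept their direction. Over all features NP calls numbered 10 in the main analysis, 3 without the replicate block, 63 with the slide term, 70 with the random block, 52 with the block within sets, 0 without the filter, 25 over probes above background on all arrays, 18 with quantile normalization, 24 with normexp and 214 by the t-test without adjustment. PHEN calls numbered 7, against 0, 17, 14, 9, 0, 6, 7, 8 and 167, and MET calls 0, against 0, 2, 3, 2, 0, 0, 0, 0 and 124, in the same order. DMSO and W differed in 2833 features, 754 of them higher, in 1922 without the block, in 201 with the random block (29 higher), in 2175 with quantile normalization (1059 higher), in 1197 with normexp (395 higher), in 1635 over probes above background on all arrays (780 higher), in 1457 by the t-test, and in 0 without replicate 1, without replicate 2 or with only the 2 groups, while 5042 were called without replicate 3. NP calls were 0 with any replicate left out and with only the groups compared, as were PHEN calls. The cause of these differences was not tested.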
